A study of Mus musculus with 24 samples.

Results

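Small proline-rich proteins are short proteins of stratified epithelia that transglutaminases cross-link into the cornified envelope beneath the membrane of dying keratinocytes, and their genes lie side by side in the epidermal differentiation complex. Sprr2a is also made outside the skin, by epithelial cells of the gut, where its product is known as a secreted protein that kills bacteria and where microbes and the type 2 cytokines IL-4 and IL-13 raise its transcript. Succinate in drinking water starts such a type 2 response in the small intestine, since tuft cells sense it through the receptor Sucnr1 and release IL-25, which makes innate lymphoid cells release IL-13. Described here are the 5 genes named Sprr1a, Sprr2a1, Sprr2a2, Sprr2a3 and Sprr2b, chosen by their gene names, out of 34471 genes with a count in at least 1 library.

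RNA of the distal jejunum was sequenced from 24 mice, 3 in each of 8 groups. The groups were wild type mice and mice with a germline disruption of Ptk6 in every tissue (Ptk6-/-), a gene for an intracellular tyrosine kinase, both on a C57BL/6 background and age-matched, of either sex, given regular water (control) or 100 mM succinate in the drinking water for 7 days. Total counts ran from 8080321 to 52824743 per library (median 43017686.5). The 18S ribosomal transcript held 51.2% of all reads counted in wild type male control replicate 1, 29.7% in Ptk6-/- male succinate replicate 1 and at most 4.49% in the others. Wild type female succinate replicate 2 held heart muscle transcripts (summed level 21412 CPM, counts scaled to a common library total). Calls over all 24 mice that rest on these 3 libraries are given with and without them. Ptk6 had 7 to 61 counts in libraries of Ptk6-/- mice and 284 to 2405 in those of wild type mice, and the enterocyte, goblet and Paneth markers of the jejunum were all detected. In whole tissue, fewer cells of a type and less RNA per cell cannot be told apart.

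All 5 genes lie on chromosome 3 at the positions deposited with the files, whose build is GRCm39. Sprr2a1 (ENSMUSG00000078664) spans 92123106 to 92129218 on the plus strand, and the deposited span of Sprr2a2 (ENSMUSG00000068893), 92123227 to 92164031, overlaps it. Sprr2a3 (ENSMUSG00000074445) follows at 92192724 to 92198712 and Sprr2b (ENSMUSG00000050092) at 92223927 to 92225392, both on the plus strand, and Sprr1a (ENSMUSG00000050359) lies at 92391259 to 92393202 on the minus strand. The 3 Sprr2a genes are near-identical copies. Of all stretches of 150 bases in annotated Sprr2a1 transcripts, 85.2% also occur in Sprr2a2, whereas 19% of those in Sprr2a3 occur in any other of the 5 genes and none of those in Sprr2b or Sprr1a do. Reads of Sprr2a1 and Sprr2a2 can therefore hardly be assigned to one copy, so the values of the single copies are uncertain and the 3 copies were also summed as Sprr2a.

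The sequences around the annotated start sites are printed to show how far the copies are alike, and any link to the levels of these genes was not tested. RefSeq (GRCm38.p6, a different build from that of the positions above) holds a promoter for all 5 members, taken as 250 bases before to 50 bases after the start. Capitals mark TTC and GAA set 4 bases apart, the spacing known for STAT6, with the bases between, in the Sprr2a copies, TGANTCA, the AP-1 element, in Sprr2b and Sprr1a, and ATTTGCAT, the octamer, in Sprr2b. The window of Sprr2a2 (chr3:92250397-92250696, plus strand) is identical to that of Sprr2a1 in all 300 bases and is not repeated.
Sprr2a1 (chr3:92215585-92215884, plus strand): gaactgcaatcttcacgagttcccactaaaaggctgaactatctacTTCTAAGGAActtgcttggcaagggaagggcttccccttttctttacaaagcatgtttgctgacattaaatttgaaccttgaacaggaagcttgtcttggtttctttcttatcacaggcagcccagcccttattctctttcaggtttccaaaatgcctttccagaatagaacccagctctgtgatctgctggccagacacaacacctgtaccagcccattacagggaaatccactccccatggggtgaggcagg
Sprr2a3 (chr3:92285054-92285353, plus strand): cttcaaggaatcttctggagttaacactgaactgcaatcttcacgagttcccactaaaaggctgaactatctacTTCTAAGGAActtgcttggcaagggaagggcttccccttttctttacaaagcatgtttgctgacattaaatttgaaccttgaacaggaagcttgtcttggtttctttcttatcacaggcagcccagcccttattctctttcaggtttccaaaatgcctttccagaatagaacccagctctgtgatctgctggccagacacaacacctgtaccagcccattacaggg
Sprr2b (chr3:92316455-92316754, plus strand): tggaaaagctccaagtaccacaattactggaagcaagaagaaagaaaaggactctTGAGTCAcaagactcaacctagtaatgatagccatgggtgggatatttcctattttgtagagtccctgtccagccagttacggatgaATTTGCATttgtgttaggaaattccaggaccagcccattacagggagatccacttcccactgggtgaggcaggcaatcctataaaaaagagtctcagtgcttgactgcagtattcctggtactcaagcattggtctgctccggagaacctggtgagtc
Sprr1a (chr3:92485832-92486131, minus strand): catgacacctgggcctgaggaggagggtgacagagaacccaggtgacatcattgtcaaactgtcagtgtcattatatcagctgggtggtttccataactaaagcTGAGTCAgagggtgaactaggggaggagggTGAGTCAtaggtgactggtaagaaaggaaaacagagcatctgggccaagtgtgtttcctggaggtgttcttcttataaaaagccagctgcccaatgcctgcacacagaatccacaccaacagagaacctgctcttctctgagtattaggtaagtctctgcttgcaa

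The windows of Sprr2a1 and Sprr2a3 are identical over all 272 bases that align, and differ only in where the annotated start was placed. Sprr2a1 and Sprr2b are alike in 55.4% of aligned bases with a longest shared run of 18 bases, and Sprr2a1 and Sprr1a in 50.5% with a run of 9. The stretch accagcccattacaggg lies at or near the end of the Sprr2a windows but before TATAAA in Sprr2b, so these windows are not in register. The 55.4%, and which motifs fall inside a window, therefore depend on the annotated starts. Annotated transcripts of Sprr2a1 and Sprr2b are alike in 92.2% of aligned bases. The same TTCTAAGGAA stands at position -204 from the start of Sprr2a1 and Sprr2a2 and at -176 in Sprr2a3. TTC and GAA at this spacing were found on either strand in 6.95% of 32851 promoter windows of this length and in 3 of the 14 windows of Sprr genes, which are these 3 copies. TGAGTCA stands at -195 in Sprr2b and at -146 and -116 in Sprr1a, where TGANTCA occurred in 7.81% of all windows and in 9 of the 14 of Sprr genes. ATTTGCAT stands at -108 in Sprr2b, and occurred in 1.74% of all windows and 7 of the 14. TATAAA stands at -29 in Sprr2b and -43 in Sprr1a and occurred in 13.6% of all windows, and AGGAAG, the core of ETS sites, stands at -120 in Sprr2a1 and -92 in Sprr2a3 and occurred in 35.4%. TTCNNNGAA, a STAT site of the shorter spacing, stands at -249 in Sprr2a3 alone among the 5 and occurred in 8.3% of windows. It lies in bases that the Sprr2a1 window does not reach. No match overlapped another within these windows, and the matches describe the sequence only, since binding was not measured.

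The Sprr2a copies were among the most abundant transcripts of the jejunum. On the FPKM scale, which divides by transcript length and so allows genes to be compared, the mean level over the 24 libraries was 1518 for Sprr2a1, 1428 for Sprr2a2, 157 for Sprr2a3, 85.1 for Sprr2b and 5.05 for Sprr1a. By this mean the summed copies ranked 24th of 34469 genes, Sprr2b ranked 479th and Sprr1a 5522nd of 34471. The summed copies ranked 28th to 53rd in the control libraries and 2nd to 52nd in the succinate libraries, and took 0.304% to 3.37% of all counts of a library. Of the counts of the 3 copies, 49.7% were assigned to Sprr2a1, 45.4% to Sprr2a2 and 4.95% to Sprr2a3.

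**Figure D1:**
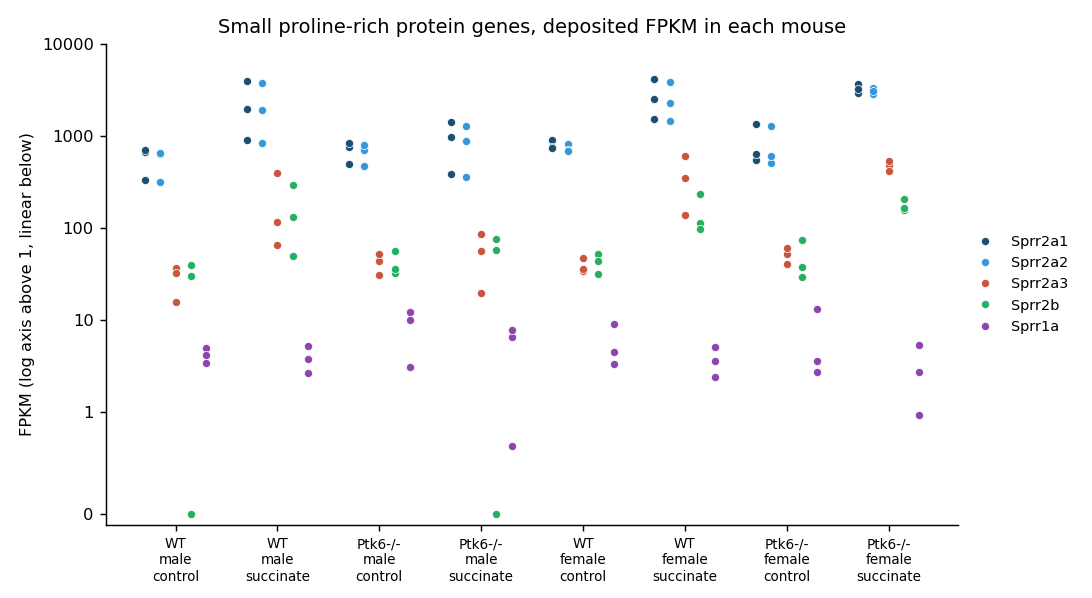
Deposited FPKM of the 5 genes in each mouse (points), by group, on an axis that is logarithmic above 1 and linear below. Sprr2a1 and Sprr2a2 lay between 314 and 4134 in every mouse, Sprr2a3 between 15.9 and 607, Sprr2b between 0 and 290 and Sprr1a between 0.672 and 13.3.

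To ask whether succinate changed these genes, succinate-treated mice were first compared with controls of the same sex and genotype, with levels in CPM after TMM normalization. Summed Sprr2a stood at 5611, 4962 and 5254 CPM in the 3 wild type male controls and at 5808, 16523 and 33405 CPM in the 3 wild type males given succinate. The groups did not overlap, but the lowest treated mouse lay just above the highest control, and the treated mice differed widely among themselves. In Ptk6-/- males, summed Sprr2a stood at 3367, 5582 and 6747 CPM in controls and at 9723, 7925 and 10936 CPM after succinate. Here all treated mice lay above all controls, by a smaller margin of means.

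Wild type females had 7158, 6343 and 5978 CPM of summed Sprr2a without succinate and 36145, 21548 and 11672 CPM with it. Every treated mouse lay above every control, and the highest of all 24 mice was in this group. Ptk6-/- females had 3790, 4854 and 13207 CPM without succinate and 25908, 24101 and 22249 CPM with it. The treated mice lay close together and above all their controls, of which replicate 3 stood far above the other two. Group means were 5275 ± 325 CPM (SD, n = 3) and 18579 ± 13913 in wild type males without and with succinate, 5232 ± 1717 and 9528 ± 1515 in Ptk6-/- males, 6493 ± 604 and 23122 ± 12312 in wild type females, and 7284 ± 5157 and 24086 ± 1829 in Ptk6-/- females. Across groups, 7 of the 12 treated mice lay above the highest of the 12 controls.

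**Figure D2:**
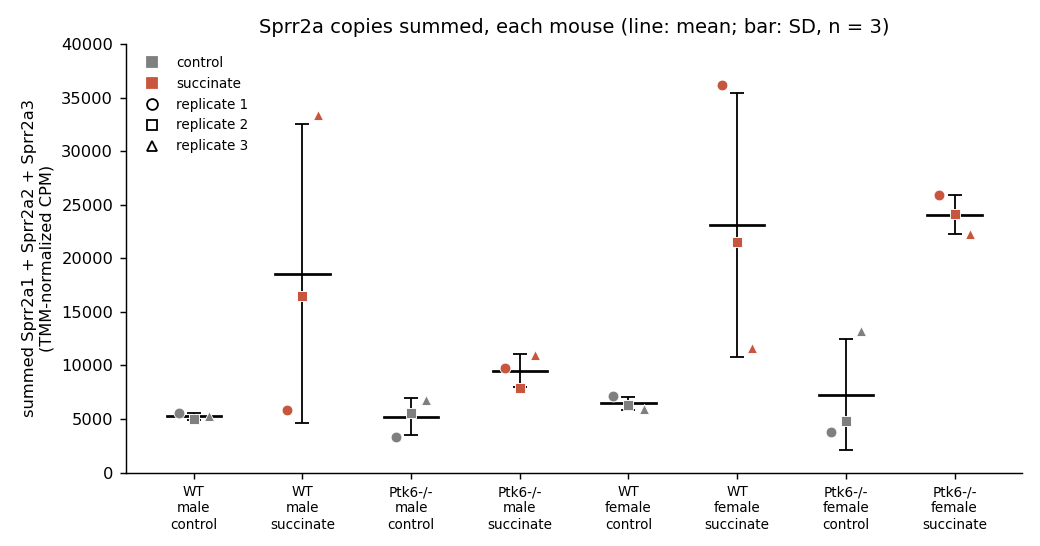
Summed level of the 3 Sprr2a copies in each mouse (points, shaped by replicate), in TMM-normalized CPM, with the mean (line) and SD (bar) of the 3 mice of each group. Controls sit between 3367 and 13207 and treated mice between 5808 and 36145.

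Over all 24 mice, with sex and genotype as covariates, summed Sprr2a rose 2.95-fold under succinate (log2 fold change 1.56, SE 0.28, adjusted p = 0.00874, edgeR quasi-likelihood test with Benjamini-Hochberg adjustment), and all 12 treated mice lay above the controls of their own sex and genotype in CPM, and 11 of the 12 in FPKM. It ranked 23rd by p among 21692 genes tested. Sprr2a1 and Sprr2a2 each rose 2.88-fold (log2 fold change 1.53, SE 0.27, adjusted p = 0.00763 by the same test) and Sprr2a3 rose 5.40-fold (2.43, SE 0.35, adjusted p = 0.00214), the last ranking 4th of 21694 genes. Thus 3 of the 5 genes were called higher and none lower, where 0.424% of all genes tested were called higher and 0.433% in either direction. These 3 are the near-identical copies, which share reads, so they are not 3 separate results. An exact permutation test of summed Sprr2a on log2(FPKM + 1), two-sided and within the 4 combinations of sex and genotype, gave a mean difference of 1.48 (2.79-fold) and p = 0.00025, with 40 of 160000 arrangements as extreme. Without the 3 libraries that stand apart, the fold change was 1.62 on the log2 scale (adjusted p = 0.0179, edgeR).

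**Figure D3:**
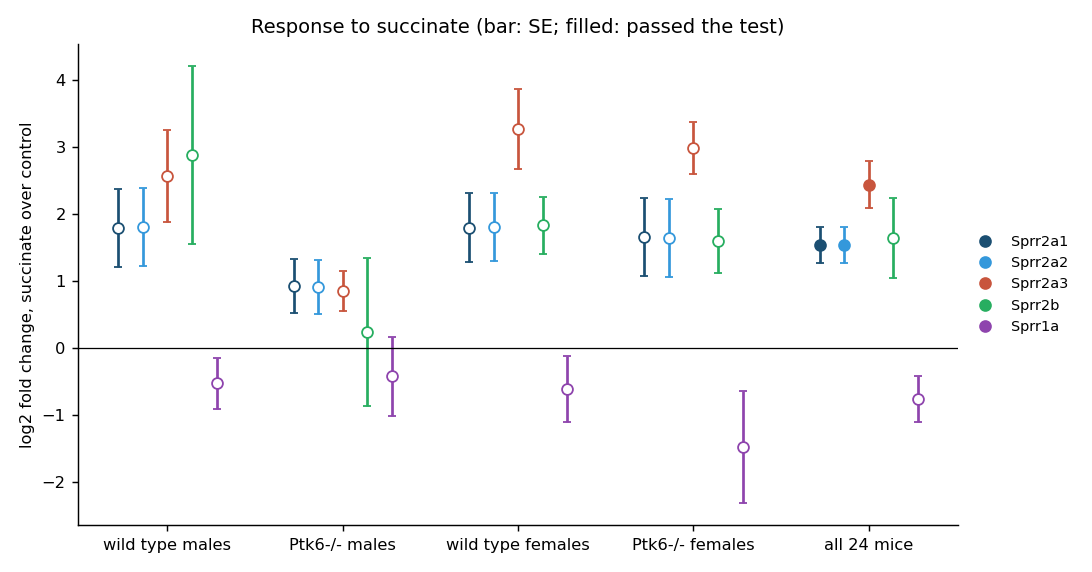
Log2 fold change of each gene under succinate (points) with its SE (bars), in each sex and genotype and over all 24 mice. Filled points passed the edgeR test at an adjusted p under 0.05 and a fold change of at least 2, which only Sprr2a1, Sprr2a2 and Sprr2a3 did, over all 24 mice.

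Within single groups of 3 against 3 mice, none of the 5 genes was called by edgeR in any of the 4 comparisons, each fitted on its 6 libraries. The log2 fold change of summed Sprr2a was 1.81 (SE 0.60, adjusted p = 0.948) in wild type males, 0.91 (SE 0.45, adjusted p = 0.601) in Ptk6-/- males, 1.85 (SE 0.54, adjusted p = 0.588) in wild type females and 1.70 (SE 0.60, adjusted p = 0.424) in Ptk6-/- females, by edgeR. The share of all genes called was 0%, 0%, 0% and 0.0879% in these 4 comparisons. At an unadjusted p under 0.05, 3, 1, 4 and 4 of the 5 genes passed, where 781 of 19183, 1470 of 18966, 1466 of 18872 and 2060 of 19334 genes did. Without the libraries that stand apart, 4 of the 5 passed by edgeR in wild type males, in Ptk6-/- males and in wild type females, and none was called. The share of all genes passing in those fits is not given here. DESeq2 called 1, 0, 4 and 4 of the 5, where it called 0.241%, 0.204%, 1.28% and 1.92% of all genes tested. Limma voom with sample quality weights called 3, 0, 1 and 4 of the 5, against 8.11%, 0.0896%, 0.26% and 1.22% of all genes. EdgeR fitted on all 24 libraries called 1 of the 5, Sprr2a3, in wild type females and in Ptk6-/- females (0.401% and 0.608% of all genes), and an offset for gene length called it in Ptk6-/- females (0.129%). Limma on log2(FPKM + 1) called Sprr2a3 and Sprr2b in wild type males (0.909% of all genes) and Sprr2a3 in Ptk6-/- females (0.231%), as it did on log2(FPKM + 0.1), with 0.916% and 0.273% of all genes called. Groups did not overlap, with treated mice higher, for 4, 3, 4 and 4 of the 5 genes, against 4.62%, 11%, 5.96% and 11.2% of all genes tested. The Sprr2a copies share reads, so none of these counts out of 5 is a count of separate results.

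Some of these within-group results turned on single mice. Without wild type male succinate replicate 1, the mouse with 5808 CPM, the change in wild type males was 2.21 (adjusted p = 0.0087, edgeR), so that the call turned on this mouse. This was the only call among the 6 fits that left out a mouse in turn, and the share of all genes called in it is not given here. On the FPKM scale, summed Sprr2a stood at 998, 1525 and 1697 in Ptk6-/- male controls and at 762, 1912 and 2791 after succinate, and the groups overlapped. On that scale their log2 change was 0.22 (adjusted p = 0.777, limma on log2(FPKM + 1)), against 0.91 in counts. The value of 762 is from Ptk6-/- male succinate replicate 1, the library with 29.7% of 18S counts and the lowest total count, 8080321, and the part of either in this value was not tested. In the other 3 pairs the groups did not overlap in FPKM.

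The order of the group means in FPKM was wild type male control (1129), Ptk6-/- male control (1407), wild type female control (1574), Ptk6-/- female control (1705), Ptk6-/- male succinate (1822), wild type male succinate (4673), wild type female succinate (5632) and Ptk6-/- female succinate (6876). The range of each group overlapped that of the next in this order, which is not a test of a difference between them.

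Sprr2a3, the copy that can be told from the others by most of its sequence, was low in controls and varied more between treated groups. It stood at 132, 133 and 119 CPM in wild type male controls and at 203, 474 and 1590 CPM after succinate, and at 101, 155 and 203 CPM in Ptk6-/- male controls and 245, 229 and 332 CPM after succinate. In both pairs the treated mice lay above the controls in CPM, and 1 treated wild type male stood far above the others. In FPKM the Ptk6-/- males overlapped, with 30.7, 43.5 and 52.3 in controls and 19.7, 56.5 and 86.9 after succinate. It stood at 184, 140 and 145 CPM in wild type female controls and at 2487, 1436 and 499.7 CPM after succinate, and at 137, 188 and 286 CPM in Ptk6-/- female controls and 1629, 1569 and 1686 CPM after succinate. None of these groups of females overlapped their controls, and 9 of the 12 treated mice lay above the highest control of any group. The log2 fold change was 2.56 (SE 0.68) in wild type males, 0.85 (SE 0.30) in Ptk6-/- males, 3.26 (SE 0.60) in wild type females and 2.98 (SE 0.39) in Ptk6-/- females, with adjusted p = 0.947, 0.600, 0.276 and 0.0767 (edgeR). In Ptk6-/- males it was 0.16 by limma on log2(FPKM + 1) (adjusted p = 0.86). The alternatives gave a call in 4 of 12 fits in wild type males, 0 of 12 in Ptk6-/- males, 3 of 12 in wild type females and 6 of 11 in Ptk6-/- females, among them DESeq2 with adjusted p = 0.00485 in wild type males, 1.96e-07 in wild type females and 3.62e-13 in Ptk6-/- females. Without wild type male succinate replicate 3, the mouse with 1590 CPM, the change in wild type males was 1.37, and without replicate 1 it was 2.98 and called (adjusted p = 0.0103, edgeR). In wild type females it was 2.64 to 3.69 with a mouse left out in turn, and was called only without succinate replicate 3 (3.69, adjusted p = 0.00911, edgeR). The share of all genes called in these fits with a mouse left out is not given here.

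The copies did not keep a fixed proportion. Sprr2a3 had 4.27 to 7.73 counts per 100 counts of Sprr2a1 in the 12 controls (median 5.15) and 4.91 to 15.8 in the 12 treated mice (median 9.13). In wild type males the ratio lay between 4.44 and 5.28 without succinate and between 5.73 and 9.60 with it, and in Ptk6-/- males between 5.44 and 5.93 without and between 4.91 and 5.94 with it. In wild type females it lay between 4.27 and 5.01 without and between 8.66 and 14.1 with succinate, and in Ptk6-/- females between 4.27 and 7.73 without and between 12.6 and 15.8 with it. Treated mice lay above controls in 3 of the 4 pairs, and in Ptk6-/- males the ranges overlapped. Sprr2a2 stayed between 88.3 and 94.2 counts per 100 of Sprr2a1 in every library, as far as these 2 copies can be told apart. The difference in ratio was not tested.

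**Figure D4:**
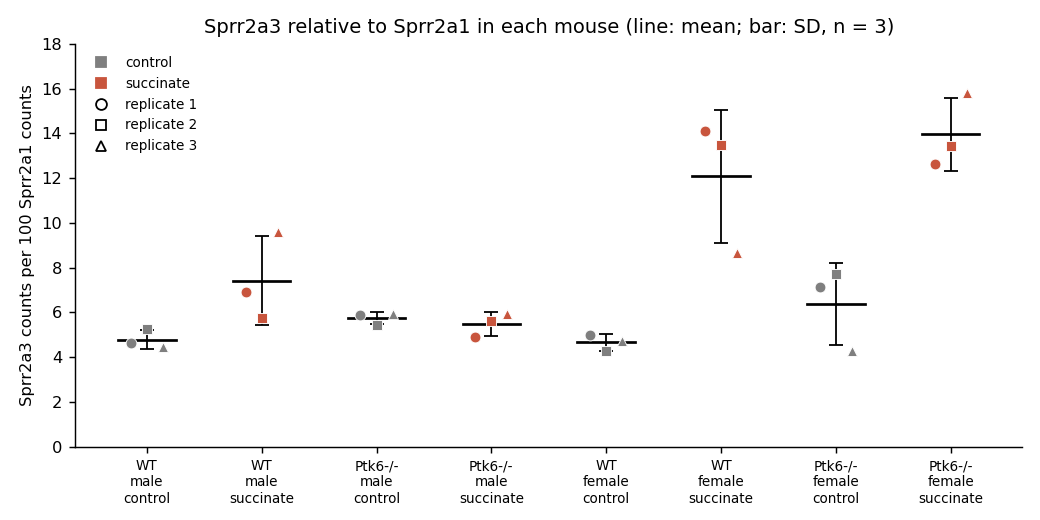
Counts of Sprr2a3 per 100 counts of Sprr2a1 in each mouse (points, shaped by replicate), with the mean (line) and SD (bar) of each group of 3. The ratio reaches 15.8 in treated females and stays at or under 5.94 in Ptk6-/- males.

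Sprr2b, whose transcript shares no stretch of read length with the others, stood at 0, 38.7 and 30.1 CPM in wild type male controls and at 41.8, 144 and 314 CPM after succinate. In Ptk6-/- males it stood at 28.9, 34.9 and 59.3 CPM in controls and at 0, 63.7 and 79.7 CPM after succinate. Both values of 0 are listed in the 2 libraries with the largest share of 18S, in which Sprr2a1 had 35182 and 18182 counts, and such a 0 can be a failed estimate of the deposited quantification. In the females, which hold no such library, Sprr2b stood at 56.2, 35.4 and 47.3 CPM in wild type controls against 259, 126 and 97.9 CPM after succinate. Ptk6-/- females had 27.2, 37.4 and 95.9 CPM in controls against 190, 162 and 141 CPM after succinate. In both sets of females every treated mouse lay above every control.

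Over all 24 mice the log2 fold change of Sprr2b was 1.63 (SE 0.59, adjusted p = 0.216, edgeR), which was not called, and without the 3 libraries that stand apart it was 1.68 (adjusted p = 0.0171), which was, making 4 of the 5 genes called higher where 0.353% of all genes were. The other called genes are the Sprr2a copies, which share reads among themselves. Within groups the change of Sprr2b was 2.87 (SE 1.33) in wild type males, 0.23 (SE 1.11) in Ptk6-/- males, 1.82 (SE 0.42) in wild type females and 1.59 (SE 0.48) in Ptk6-/- females, none called. In Ptk6-/- males it was 0.79 without the treated library listed at 0, and below 0 in 6 of 12 alternative fits. In wild type males it was 2.29 without the control listed at 0 and 2.00 without succinate replicate 3, and limma on log2(FPKM + 1) and log2(FPKM + 0.1), with that control kept, gave 3.53 and 4.65 (adjusted p = 4.6e-06 and 4.72e-10). Where it was above 0, Sprr2b stood at 1.08 to 1.89 counts per 100 of Sprr2a1. Across the 24 libraries its level had a Spearman correlation of 0.883 with Sprr2a1, against 0.939 for Sprr2a3 and 0.999 for Sprr2a2, over libraries that share treatment and sex and, for Sprr2a2, most of their reads.

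Sprr1a, which is induced in squamous epithelia and in injured tissue, was scarce and did not share the pattern. It had 9 to 611 counts and ran from 2.76 to 17.6 CPM in the 12 controls (median 5.05) and from 0.935 to 8.29 CPM in the 12 treated mice (median 3.48). No treated mouse lay above the highest control, and the groups overlapped in all 4 pairs. The log2 fold change over all 24 mice was -0.77 (SE 0.34, adjusted p = 0.292, edgeR), with -0.53, -0.43, -0.62 and -1.48 in wild type males, Ptk6-/- males, wild type females and Ptk6-/- females, none called. The last value rested on control replicate 3, without which it was -0.11. Its Spearman correlations with the other 4 genes over the 24 libraries lay between -0.18 and -0.05.

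To ask whether loss of Ptk6 moved these genes without succinate, control groups were compared. The log2 difference of summed Sprr2a, Ptk6-/- minus wild type, was -0.04 (SE 0.30, adjusted p = 0.956) in males, 0.19 (SE 0.51, adjusted p = 0.909) in females and 0.07 (SE 0.29, adjusted p = 0.915) over the 12 controls, by edgeR. None of the 5 genes was called in either sex, where 0.739% of all genes were in males and 0.0158% in females. In females the value rests on Ptk6-/- female control replicate 3 with its 13207 CPM, and without it was -0.53 (adjusted p = 0.209). That mouse also had the highest Sprr2a3, Sprr2b and Sprr1a among the controls. Over the 12 controls the difference was 0.31 (SE 0.19, adjusted p = 0.344) for Sprr2a3, 0.52 (SE 0.65, adjusted p = 0.668) for Sprr2b and 0.43 (SE 0.48, adjusted p = 0.627) for Sprr1a, and none of the 5 genes was called, where 0.71% of all genes tested were. Females minus males gave 0.36 (SE 0.29, adjusted p = 0.584) for summed Sprr2a over the 12 controls, where 0.0636% of genes were called.

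Under succinate, the log2 difference of summed Sprr2a between genotypes was -0.93 (SE 0.76, adjusted p = 0.9999) in males and 0.06 (SE 0.60, adjusted p = 0.996) in females, by edgeR. The difference between genotypes in the response to succinate was -0.91 (SE 0.76, adjusted p = 0.993) in males and -0.11 (SE 0.76, adjusted p = 0.992) in females, Ptk6-/- minus wild type. Both male values rested on wild type male succinate replicate 3, the mouse with 33405 CPM, without which they were -0.19 and -0.15. By limma voom with sample quality weights the genotype difference in treated males was -1.39 (adjusted p = 0.039), which was called, as were 10.2% of all genes in that fit, and the difference in response was -1.57 (adjusted p = 0.126), which was not. The male value minus and plus 2 SE ran from -2.42 to 0.61, so a lower and an equal response in Ptk6-/- males were both within the spread between mice. The difference between sexes in the response, females minus males, was 0.05 (SE 0.81) in wild type and 0.82 (SE 0.71, adjusted p = 0.811) in Ptk6-/- mice. The latter was 1.74 by limma voom (adjusted p = 0.0792) and 1.905 by limma on log2(FPKM + 1) (adjusted p = 0.459), neither called. For Sprr2a3 alone it was 2.15 in Ptk6-/- mice (SE 0.47, unadjusted p = 0.000583, adjusted p = 0.283, edgeR), which did not pass over all genes by edgeR but did by DESeq2 (2.15, adjusted p = 0.00227, 0.876% of all genes called) and by limma voom (2.59, adjusted p = 0.0154, 0.176% called). The genotype difference in the response of Sprr2a3 in males was -1.71 (SE 0.79, adjusted p = 0.993, edgeR), and -0.52 without wild type male succinate replicate 3. No gene at all was called by edgeR in these 4 interactions (0% of those tested), where 772 to 1458 genes had an unadjusted p under 0.05.

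The rest of the family was nearly silent. Of 11 other Sprr genes listed, all are in the count table and 9 had 0 counts in every library. Sprr2k had 0 to 113 counts, at most 3.37 CPM, with a count in 11 of the 24 libraries, and its log2 fold change under succinate over all 24 mice was 2.48 (SE 1.09, adjusted p = 0.295, edgeR). Sprr2h had at most 12 counts, in 2 libraries, and the pseudogene Sprr2c-ps at most 11. The coding genes on the far side of the Sprr2a copies, Prr9 and Lelp1, also of the epidermal differentiation complex, had at most 8 and 4 counts.

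Genes of the pathways around these proteins were read from lists, and over all 24 mice some of the epithelial targets of type 2 cytokines and of the tuft cell genes rose with succinate, while none of the partners of SPRR proteins in the skin was called. Of 15 epithelial type 2 response genes tested, 7 rose, with a median log2 fold change over the 15 of 2.51, against a median of -0.00103 over all genes tested. Within groups the median of this list was 0.59 in wild type males, 0.29 in Ptk6-/- males, 3.27 in wild type females and 4.03 in Ptk6-/- females. Only in Ptk6-/- females were any called, 5 of 15, where 0.0879% of all genes were. The 7 called over all 24 mice are described next. They include Pla2g4c, a phospholipase (6.25, adjusted p = 0.00105, edgeR), Retnlb, an antibacterial goblet cell protein (6.20, adjusted p = 0.00483), and the gasdermin Gsdmc4 (2.60, adjusted p = 0.00383). Of 12 tuft genes 6 rose (median 1.71), among them the ion channel Trpm5 (1.57, adjusted p = 0.00763), Sh2d6 (1.93, adjusted p = 0.0186) and the actin-binding protein Avil (1.69, adjusted p = 0.0229). Within groups the tuft median was 0.84 in wild type males, 0.14 in Ptk6-/- males, 2.44 in wild type females and 2.84 in Ptk6-/- females.

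Of 12 type 2 cytokines and receptors, 2 were called (median 0.56). They were Il17rb, a receptor subunit for IL-25 (1.32, adjusted p = 0.00763, edgeR), and Il25 itself (4.41, adjusted p = 0.0275), which was not called without the 3 libraries that stand apart (adjusted p = 0.0855). Il13, the cytokine known to act on the epithelium, was at 3.72 (adjusted p = 0.18). Of 20 secreted antibacterial proteins and enzymes, the class of which Sprr2a is a member, 2 rose (median 0.03), Retnlb and Duoxa2, the maturation factor of an oxidase that makes hydrogen peroxide (2.05, adjusted p = 0.00433), while Ang4, a Paneth and goblet cell ribonuclease, was at 1.76 (adjusted p = 0.0556). Of the 20, 11 had a value above 0, and without the 3 libraries that stand apart 8 had, with a median of -0.38. Among the lower ones, named after their values were seen, the nitric oxide synthase Nos2 was at -2.25 (adjusted p = 0.173, edgeR), the acute phase protein Saa2 at -2.24 (adjusted p = 0.238), and the lectins Reg3g, Reg3b and Reg3a at -2.07, -1.86 and -1.41 (adjusted p = 0.207, 0.246 and 0.231), none of which was called.

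Of 11 cornified envelope proteins and cross-linking enzymes tested none was called (median 0.13). The envelope scaffold Evpl was at 0.62 (adjusted p = 0.0229), under the fold change of 2, and the transglutaminases Tgm5 and Tgm2 at -1.15 and -0.32 (adjusted p = 0.345 and 0.37, edgeR). None was called of 14 genes of epithelial injury and repair (median 0.22), with the keratin Krt7 at 0.75 and the claudin Cldn4 at 0.66, nor of 14 receptors and adaptors of microbial sensing (median -0.25), with the adaptor Ticam1 at -0.42. Over the 12 controls, the genotype comparison called 1 gene of these 7 pathway lists, the glycosyltransferase B3galt5 (2.70, adjusted p = 0.0196, edgeR). It is 1 of 15 tested in its own list, and 0.71% of all genes tested were called in this comparison.

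**Figure D5:**
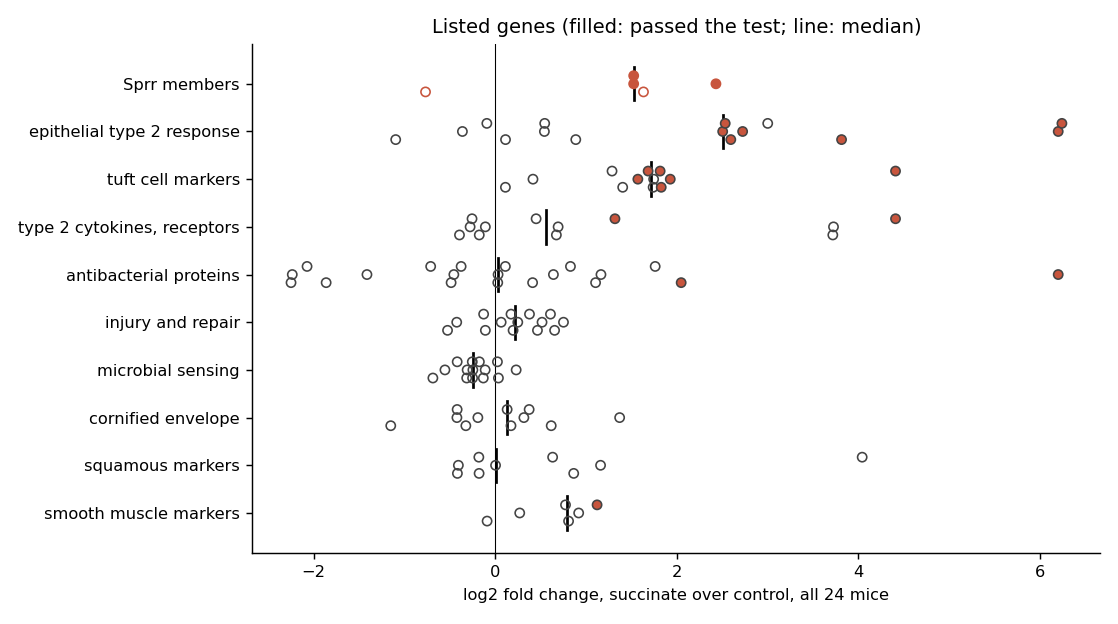
Log2 fold change under succinate over all 24 mice of each tested gene (points) in 9 lists and among the Sprr genes, with the median of each list (line); filled points passed the edgeR test. Medians are 2.51 for the epithelial type 2 response, 1.71 for tuft genes and 0.13 for the cornified envelope.

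The genes whose level was most like that of summed Sprr2a over the 24 libraries, among 13938 genes with a mean of at least 1 CPM, were Actg2, a smooth muscle actin (Spearman 0.918), Car4, a membrane carbonic anhydrase (0.914), Gpx2, a gut glutathione peroxidase (0.913), Duoxa2 (0.911), the pseudogene Gpx2-ps1 (0.904) and AA467197 (0.9). Sprr2b ranked 13th at 0.879. Within the 12 controls alone the values were 0.895 for Actg2, 0.727 for Car4, 0.832 for Gpx2 and 0.524 for Duoxa2, and within the 12 treated mice 0.888, 0.846, 0.748 and 0.881. The libraries share treatment, sex and tissue sampling, and these correlations are descriptions. Under succinate Car4 rose by 1.85 (adjusted p = 0.00763), AA467197 by 2.71 (adjusted p = 0.00105) and Gpx2 by 1.39 (adjusted p = 0.0281) on the log2 scale by edgeR, and Gpx2 was not called without the 3 libraries (1.20, adjusted p = 0.135).

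Markers of other cell types moved with Sprr2a in part. The 6 smooth muscle markers, all detected in all libraries, summed to 1719 to 4643 CPM in controls and 1871 to 7649 CPM in treated mice, and 1 of them, Actg2, was called (1.12, adjusted p = 0.0433, edgeR), but not without the 3 libraries (1.10, adjusted p = 0.125). The mouse with the highest Sprr2a, wild type female succinate replicate 1, had the highest smooth muscle sum (7649 CPM), Ptk6-/- female control replicate 3 the highest of the controls (4643 CPM), and wild type male succinate replicate 1, the treated mouse with the least Sprr2a, the lowest of the treated mice (1871 CPM). The 12 tuft markers summed to 46.4 to 67.4 CPM in controls and to 80.7 to 97.6, 49.9 to 79.9, 117 to 315 and 162 to 362 CPM in treated wild type males, Ptk6-/- males, wild type females and Ptk6-/- females. The 14 squamous markers summed to at most 18.2 CPM in controls and 29.3 CPM in treated mice, with Krt6a and Krtdap at 0 and none called of 9 tested, and Ly6d carried the highest count. The part of muscle and tuft content in the Sprr2a levels was not tested. The trend of a library's levels with gene length, taken as the rise in log2 CPM per doubling of length, differed between these mice too. It was 0.680 in wild type male succinate replicate 1, the highest of the treated mice, and 0.495 in Ptk6-/- female control replicate 3, the lowest of the controls. In wild type females given succinate it was 0.476, 0.593 and 0.627 in the order of their Sprr2a levels of 36145, 21548 and 11672 CPM, and the lowest of all was 0.417 in Ptk6-/- male succinate replicate 1. With this trend entered into the edgeR fit as an offset, the change of summed Sprr2a over all 24 mice was 1.55 (adjusted p = 0.00521, edgeR). Of the enterocyte, Paneth, lymphoid, heart and lung markers none was called for succinate over all 24 mice, and of the goblet markers Spink4 was (2.00, adjusted p = 0.0399), but not without the 3 libraries (1.73, adjusted p = 0.14). Within groups of 3, the summed markers of other cell types in treated mice and controls did not overlap in several pairs where Sprr2a is given. Lymphoid follicle markers summed to 86.0 to 108 CPM in treated wild type males against 26.9 to 75.7 CPM in controls. Enterocyte markers were lower in treated wild type females, with 24137 to 34458 against 35864 to 41357 CPM, and higher in treated Ptk6-/- males, with 22892 to 49418 against 13317 to 21137 CPM. In Ptk6-/- males the heart muscle markers summed to 42.3 to 228 CPM against 13.3 to 34.0 CPM and the smooth muscle markers to 2667 to 2855 against 1719 to 2655 CPM. No marker of these lists was called within these groups by edgeR, and the part of these cells in the Sprr2a levels was not tested. Between genotypes over the 12 controls, 2 lung markers, Scgb1a1 and Sftpa1, and 1 goblet marker, Muc2, were called higher in Ptk6-/- mice, where 0.71% of all genes were called in either direction. The 6 lung markers summed to 10.6 to 17.1 CPM in Ptk6-/- female controls and to 6.08 to 10.2 CPM in treated Ptk6-/- females, without overlap. They summed to 14.99 CPM in wild type female succinate replicate 3 and to at most 0.717 CPM in the others. Their part in the Sprr2a levels was not tested.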

How the data were processed

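Poly(A) RNA of the distal jejunum of 24 mice was sequenced as stranded libraries. The count values per gene, as deposited, are raw and whole; the authors trimmed with Cutadapt and mapped with HISAT2, and the counting program and annotation release are not given in the sources used here. The FPKM values, as deposited, were made by the authors with StringTie and ballgown, and include 18S fragments in their total. GRCm39 is the build named in the submitters' processing notes.

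The main test was edgeR's quasi-likelihood test (version 4.0.16, R 4.3.3) on counts with TMM normalization and Benjamini-Hochberg adjustment over all genes tested, which were those reaching 10 counts in 3 or more libraries of a fit. A call needs an adjusted p under 0.05 and a fold change of at least 2. Summed Sprr2a replaced its 3 copies in a second fit. Two-group fits held the 6 libraries concerned, and succinate over all 24 mice had sex and genotype as covariates. The study's thresholds were used. An exact permutation test was run on log2(FPKM + 1). With 3 mice against 3, an exact test cannot go below p = 0.1. The alternatives used DESeq2 1.42.0, limma 3.58.1, FPKM, other filters and offsets, and left out libraries. The scripts were tested on simulated data. P-values of the fits judge a difference against the variation between mice, and that of the exact test is the share of arrangements as extreme.

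The members and lists were chosen with earlier results of these data known. Named genes were the members, other Sprr genes with at least 10 counts, up to 3 genes of each list with the smallest p for succinate and up to 2 for genotype, 2 coding neighbours on either side, and the 6 genes most like summed Sprr2a by Spearman correlation. B3galt5 was named for genotype. Promoters are RefSeq's, searched on both strands with biopython 1.88 and pandas 2.3.3, and transcript overlap used GENCODE's transcripts for GRCm38.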

Additional observations from a re-analysis of the deposited data

How the results depend on the processing

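The rise of summed Sprr2a over all 24 mice kept its direction under every alternative run (log2 fold change 1.48 to 1.63) and its call under all but limma on log2(FPKM + 1) with no filter on low values (1.48, adjusted p = 0.163); leaving out 1 mouse at a time gave 1.39 to 1.70 with every call kept. Within groups, calls of summed Sprr2a not made by edgeR were made by DESeq2 in Ptk6-/- females (1.73) and wild type females (1.85), and by limma voom with sample quality weights in Ptk6-/- females (2.44), in wild type males (2.32) and for genotype in succinate-treated males (-1.39). Leaving out 1 mouse at a time gave 1.05 to 2.21 in wild type males, 1.39 to 2.45 in Ptk6-/- females, -1.34 to -0.19 for genotype in treated males, -1.33 to -0.15 for the interaction of genotype and succinate in males and 0.52 to 1.56 for that of sex and succinate in Ptk6-/- mice. No value that reversed was called, by edgeR or by the alternative. The genotype difference in control males was 0.0070 with no filter, 0.17 by voom, 0.056 with a gene length offset, 0.022 with that offset and the replicate block, 0.36 by limma on log2(FPKM + 1), on log2(FPKM + 0.1) and with no filter on FPKM, and 0.051 without the 3 libraries that stand apart. In control females it was -0.47 by voom and -0.032 with the replicate block, over the 12 controls -0.20 and -0.041, and in treated females -0.019 without the 3 libraries. By voom and by the 3 FPKM fits, the interaction of genotype and succinate in females was 0.47 and 0.40, that of sex and genotype in controls -0.62 and -0.35, and that of sex and succinate in wild type mice -0.22 and -0.14. The ranges over mice left out in turn were -0.53 to 0.50 for genotype in control females, -0.25 to 0.20 in control males, -0.26 to 0.57 in treated females and -0.26 to 0.19 over all controls, and -0.42 to 0.62, -0.50 to 0.54 and -0.44 to 0.80 for those 3 interactions. The change of Sprr2b in Ptk6-/- males turned with the library listed at 0: it was -0.59 with the replicate block, -0.040 with the length offset, -0.92 with both, -1.31, -2.40 and -1.31 in the FPKM fits with pseudocounts of 1 and 0.1 and with no filter, and -0.31 to 0.79 with a mouse left out in turn. Sprr1a between genotypes over the controls was -0.12 to 0.70 with a mouse left out in turn, the lowest without Ptk6-/- female control replicate 3. Over 50 further comparisons of single genes, whose values are not given here, 154 of 1075 alternative values had the opposite sign. Replicate numbers only number the mice: 2 of 24 same-numbered pairs had deviations correlated over 0.1 (range -0.36 to 0.23), and the replicate block gave 1.58 (adjusted p = 0.0162) for summed Sprr2a over all 24 mice and changed no other call. Without the 3 libraries, chosen after seeing the data, 4 of the 5 genes, 8 tuft genes and 1 heart muscle gene were called higher, and 1 cytokine or receptor gene and 0 goblet and 0 smooth muscle genes, by edgeR. In that fit 0.353% of all genes tested were called higher. The causes were not tested.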
